A study of Homo sapiens with 8 samples.

Results

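The cytochrome P450 genes examined were the 43 genes whose symbol reads CYP, a family number, a subfamily letter and a gene number, of 18377 genes with a symbol of their own on the array. CYP1A1, CYP1A2, CYP1B1 and CYP51A1 were left out by name, and the rule itself uses no measured value, although it was written with earlier results of these data known. Each of the 43 genes was read from 1 probe set. A further 7 P450 probe sets carry several symbols, so their genes are not named here, and 0 of the 7 passed the test in any of the 4 comparisons. The 43 genes belong to 14 families, with 12 members in CYP4, 10 in CYP2, 3 each in CYP3, CYP11, CYP26 and CYP27, and 2 in CYP7. The families CYP8, CYP17, CYP19, CYP20, CYP24, CYP39 and CYP46 had 1 member each.

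RNA came from A549 cells, a human line grown from a lung adenocarcinoma, cultured at an air–liquid interface. Cells of the PCA group were exposed for 4 hr in the evening to photochemically altered (PCA) pollutants, an urban mixture of hydrocarbons and nitrogen oxides aged in sunlight, which the labels call the aged urban mix. Evening controls received air at the same hours. Cells of the primary group were exposed for 4 hr in the morning to the fresh urban mix, the same mixture before most of that ageing, and morning controls received air at those hours. The labels call this air humidified and the methods call it incubator air. RNA was collected 9 hr after exposure and hybridised to 8 Human Gene 1.0 ST arrays, 2 for each of the 4 groups. The methods describe biological duplicates, but the arrays of an exposure belong to the same run, so mixture, time of day and run cannot be told apart, and p-values measure the spread between arrays of a run. The data come from 1 cell line.

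The arrays of a group correlated at r between 0.9939 and 0.9965 over all probe sets. The epithelial markers KRT8, KRT18, KRT19, EPCAM, CDH1 and KRT7 had a mean signal of 300 or more in 6 of 6 cases. Of 6 alveolar type II markers, 0 reached 300 and 4 lay under 100. Of the other cell type markers, 1 of 6 fibroblast, 1 of 5 leukocyte and 0 of 4 endothelial genes reached 300. Of the 6 epithelial markers, 4 were lower on average after the PCA pollutants than in evening controls and 2 were higher. CDH1, the adhesion protein E-cadherin, was the 1 that fell, by 1.11 on the log2 scale. KRT7 had a mean of 11.67 on PCA arrays and 11.33 on evening control arrays, and KRT19 had 9 and 8.87. The summed signal of the 6 markers was 30200 to 30800 on PCA arrays and 32200 to 34000 on evening control arrays. On primary arrays the sum was 27600 to 34300, against 34700 to 35500 on morning control arrays. The part of these differences in the results below was not tested.

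P450 enzymes are heme proteins that insert 1 atom of oxygen into their substrate. Most sit in the endoplasmic reticulum and take electrons from the reductase POR and from cytochrome b5, and a few sit in mitochondria and take them from ferredoxin. The liver holds the largest amounts, where families CYP2 and CYP3 oxidise drugs and foreign compounds. In the airway and other tissues, CYP4 enzymes oxidise the far end (the omega carbon) of fatty acids and of the signalling lipids made from them, among them leukotriene B4, which draws neutrophils. Other families make or break down steroids, bile acids, vitamin D and retinoids.

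The signals are log2 values normalized by the authors, and genes under a signal of 30 on all arrays of a comparison were not tested in it. A gene rose or fell only where the Benjamini-Hochberg adjusted p from limma was under 0.05 and the fold change was at least 1.5. Standard errors (SE) and 95% intervals of a log2 fold change come from the fit to all 8 arrays, with n = 2 arrays a group. After the PCA pollutants, 41 of the 43 P450 genes were tested, with CYP4F8 and CYP7A1 below the limit. CYP4F3, CYP4F11 and CYP4F12 fell, and 0 P450 genes rose, although 4 were higher at an unadjusted p under 0.05, as were 14.5% of all genes. Among all 17470 genes tested 3.53% passed, 2.66% lower and 0.876% higher. All 3 P450 genes that fell belong to the subfamily CYP4F. In RNA from a whole culture, fewer cells that make a transcript and less RNA per cell cannot be told apart.

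CYP4F3 encodes the leukotriene B4 omega-hydroxylase, which inactivates that lipid. Its log2 signal was 8.68 and 8.57 on the PCA arrays, against 9.45 and 9.41 on the evening control arrays. The log2 signal of CYP4F3 was 9.30 and 9.43 on the primary arrays, against 9.53 and 9.38 on the morning control arrays. Both PCA arrays lay below each of the other 6 arrays, while the primary and morning control arrays overlapped. The PCA difference was −0.81 on the log2 scale (SE 0.0873, 95% interval −1.01 to −0.60), 1.75-fold lower, with an adjusted p of 0.0024.

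CYP4F11 encodes an omega-hydroxylase of vitamin K and of long-chain fatty acids. Its log2 signal was 8.09 and 8.15 on the PCA arrays and 8.88 and 8.82 on the evening control arrays. On the primary arrays it was 8.61 and 8.77, and on the morning control arrays 8.91 and 8.85. The PCA arrays again lay below all others, and the primary arrays lay below both morning controls. The PCA difference was −0.73 (SE 0.08, adjusted p 0.00242), 1.66-fold lower.

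CYP4F12 encodes a hydroxylase of fatty acids and of some antihistamine drugs. The log2 signal of CYP4F12 was 7.10 and 7.06 on the PCA arrays and 7.72 and 7.69 on the evening control arrays. It was 7.55 and 7.77 on the primary arrays and 7.51 and 7.73 on the morning control arrays, which overlapped. The PCA difference of −0.62 (SE 0.105, adjusted p 0.00846), 1.54-fold lower, lay just past the fold limit. Without evening control replicate 1 its adjusted p was 0.0516 and without replicate 2 it was 0.0513, so the call on CYP4F12 needed both control arrays.

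The other CYP4F genes did not pass. CYP4F2, a hydroxylase of vitamin K and of arachidonic acid, had 5.29 and 5.63 on the PCA arrays, against 5.98 and 5.66 on the evening control arrays. Its groups did not overlap, but they lay close, and the difference of −0.36 (SE 0.157, 95% interval −0.72 to 0.01) had an adjusted p of 0.138. CYP4F22, which hydroxylates the very long fatty acids of the skin barrier, had 5.60 and 5.75 on the PCA arrays, against 5.64 and 5.35 on the evening control arrays, which overlapped. Its difference was 0.18 (SE 0.113, adjusted p 0.28). CYP4F8, a prostaglandin hydroxylase of seminal vesicles, had 4.56 and 4.88 on the PCA arrays and 4.56 and 4.78 on the evening control arrays, all under the limit of 4.91 on the log2 scale. The CYP4F genes are close paralogs, as are the pairs CYP11B1 and CYP11B2 and CYP4A11 and CYP4A22, and how far each probe set measured its own transcript was not tested, since probe sequences were not used here.

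**Figure D1:**
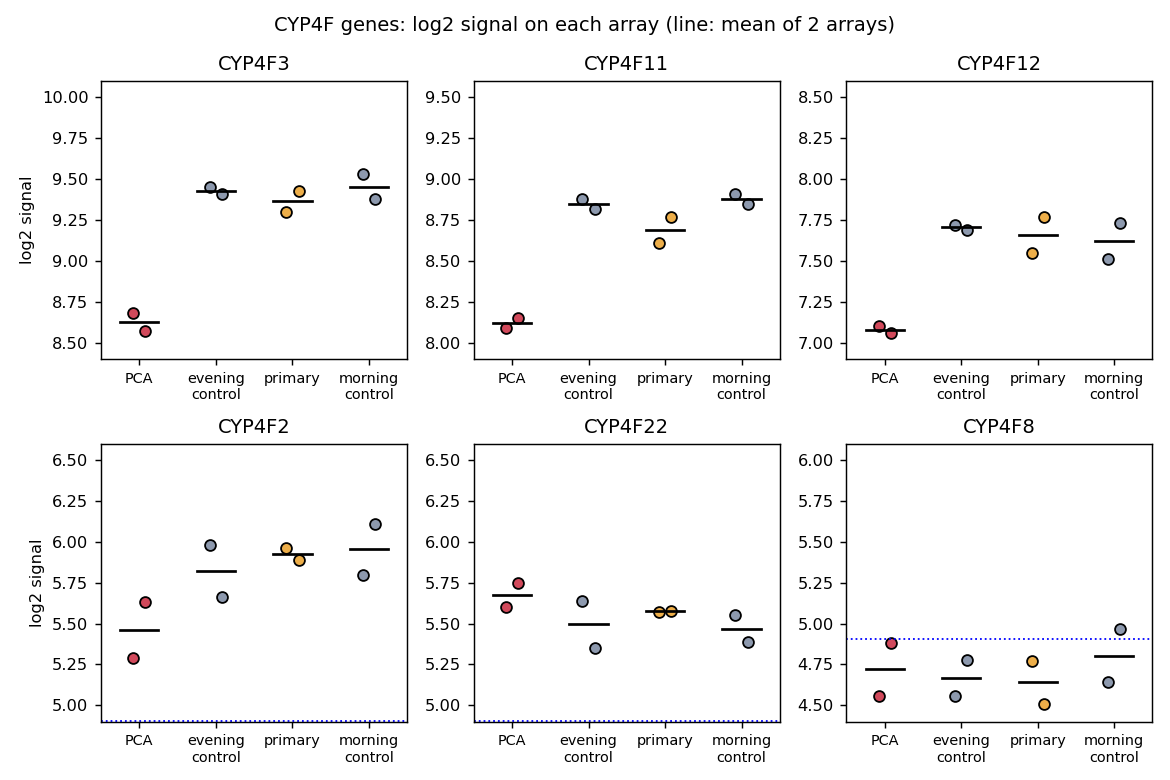
The log2 signal of the 6 CYP4F genes by group, each point being 1 of the 8 arrays and each line a mean of 2, with the signal limit of 30 dotted where it falls in range. Axes span the same height in each panel. The PCA arrays of CYP4F3, CYP4F11 and CYP4F12 lie below all other arrays, those of CYP4F2 just below its evening controls, and those of CYP4F22 and CYP4F8 overlap their evening controls.

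Members that fell lie in a cluster with the others of their subfamily. In the annotation of GRCh38.p14 the 6 CYP4F genes stand on chromosome 19 in the order CYP4F22, CYP4F8, CYP4F3, CYP4F12, CYP4F2 and CYP4F11, with 18 other genes between them. Of these 18 genes, 5 were tested after the PCA pollutants (OR10H2, OR10H3, OR10H5, OR10H1 and UCA1), and 0 passed, against 3.53% of all genes. At that share 5 genes are too few to tell whether the falls were confined to CYP4F genes. Their log2 fold changes ran between −0.28 and 0.39. CYP4F2, which did not pass, stands between CYP4F12 and CYP4F11, which fell.

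The promoters of CYP4F3 and CYP4F11, which fell, are shown with that of CYP4F2, a relative that did not pass, to compare the bases upstream of each start. RefSeq promoter windows on GRCh38.p14 were matched for 30 of the 43 P450 genes, and the 250 bases before each start were read. CYP4F3 lies on the plus strand at chr19:15641062-15641311. CYP4F11 has a pair of starts on the minus strand, at chr19:15934868-15935117 (window 1) and chr19:15934530-15934779 (window 2), and CYP4F2 lies on the minus strand at chr19:15898075-15898324. CYP4F12, which also fell, had no promoter window to read and is missing from this comparison. Motifs chosen after the sequences were seen were searched on both strands, and capitals mark CCAAT (the box bound by NF-Y, ATTGG when read on the other strand) and TGTTTAC (the forkhead motif). The 2 motifs did not overlap in these windows.
CYP4F3: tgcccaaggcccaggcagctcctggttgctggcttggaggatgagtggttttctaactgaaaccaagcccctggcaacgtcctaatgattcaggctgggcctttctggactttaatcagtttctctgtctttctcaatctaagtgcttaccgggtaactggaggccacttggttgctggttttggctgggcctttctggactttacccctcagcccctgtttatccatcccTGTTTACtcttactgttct
CYP4F11 window 1: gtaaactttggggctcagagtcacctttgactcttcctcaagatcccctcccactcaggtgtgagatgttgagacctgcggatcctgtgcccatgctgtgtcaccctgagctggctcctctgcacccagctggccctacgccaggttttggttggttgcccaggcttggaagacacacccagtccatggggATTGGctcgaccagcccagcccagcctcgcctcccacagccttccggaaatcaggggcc
CYP4F11 window 2: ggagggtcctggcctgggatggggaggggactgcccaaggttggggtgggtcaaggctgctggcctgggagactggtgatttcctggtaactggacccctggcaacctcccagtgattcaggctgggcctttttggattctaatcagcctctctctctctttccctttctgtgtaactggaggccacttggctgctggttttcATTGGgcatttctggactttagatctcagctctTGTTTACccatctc
CYP4F2: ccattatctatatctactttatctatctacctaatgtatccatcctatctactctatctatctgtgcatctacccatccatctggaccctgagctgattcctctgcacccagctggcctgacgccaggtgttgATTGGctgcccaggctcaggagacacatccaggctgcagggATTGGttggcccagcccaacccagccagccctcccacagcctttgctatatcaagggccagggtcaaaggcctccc

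TGTTTAC stood 19 to 13 bases before the start of CYP4F3 and 14 to 8 bases before the second start of CYP4F11. It was in neither the first CYP4F11 window nor that of CYP4F2. CCAAT, on the reverse strand, stood once in each CYP4F11 window and at 2 places in CYP4F2, and these letters were not in the CYP4F3 window. AGGTCA, a motif of nuclear receptors, was in none of the 4 windows. Of all 35116 promoter windows of this length, 32.0% held CCAAT, 3.0% held TGTTTAC and 12.1% held AGGTCA. Among the 43 windows of P450 genes, which number 43 because some genes have several, 19 held CCAAT, 4 held TGTTTAC and 11 held AGGTCA. These counts include the CYP4F windows shown, which were seen before the motifs were chosen. They therefore do not measure an excess over all windows. In global alignments CYP4F3 shared 60.9% of aligned positions with the second CYP4F11 window, and CYP4F2 shared 64.3% with the first. The other pairs shared 45.2% to 49.3%. A match of letters is a description of these windows and not a binding site.

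Genes for vitamin D and retinoid metabolism had differences in both directions, and 0 passed both limits. CYP24A1, the mitochondrial hydroxylase that inactivates vitamin D, had 12.77 on both PCA arrays, against 13.28 and 13.24 on the evening control arrays. The log2 signal of CYP24A1 was 13.03 and 13.04 on the primary arrays, against 13.13 and 13.17 on the morning control arrays. Both exposures lay below their own controls on every array, and the primary difference was −0.12 (adjusted p 0.663). The PCA difference of −0.48 (SE 0.0663) had an adjusted p of 0.00454 but was 1.40-fold, under the fold limit. CYP27C1, which converts vitamin A1 to vitamin A2, had 6.46 and 6.54 on the PCA arrays, against 5.82 and 6.21 on the evening control arrays. Its difference of 0.49 (SE 0.126, adjusted p 0.0339) was also 1.40-fold. The evening control arrays of CYP27C1 differed by more than those of most members, and the difference was 0.29 (adjusted p 0.136) without evening control replicate 1 and 0.69 (adjusted p 0.026), past both limits, without replicate 2.

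All 3 CYP27 genes were higher on every PCA array than on the evening control arrays, with a median log2 fold change of 0.29. Over all members 12 genes were higher on every PCA array and 10 lower, against 31.7% and 36.6% of all genes. CYP27A1, the sterol 27-hydroxylase, differed by 0.29 (adjusted p 0.0703) and CYP27B1, which activates vitamin D, by 0.27 (adjusted p 0.119). These 3 differences stayed positive under 3 further scalings of the arrays, but with cyclic loess their median was 0.186, with 0.14 for CYP27A1 and 0.36 (adjusted p 0.107) for CYP27C1. The 3 CYP26 genes, which break down retinoic acid, had differences between 0.02 and 0.06, all 3 negative with the arrays centred on their medians. The largest of them was CYP26C1 with 0.06 (adjusted p 0.746). CYP2R1, which makes 25-hydroxyvitamin D, had 9.45 and 9.35 on the PCA arrays, against 9.54 and 9.45 on the evening control arrays, a difference of −0.09 (adjusted p 0.476).

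Of the 10 CYP2 genes, 0 rose or fell. CYP2U1, a hydroxylase of long-chain fatty acids, had 6.85 and 6.91 on the PCA arrays, against 7.21 and 7.25 on the evening control arrays. Its difference was −0.35 (SE 0.103, adjusted p 0.049), 1.28-fold. CYP2S1, whose substrates are poorly known, had 8.36 and 8.32 on the PCA arrays, against 8.63 and 8.67 on the evening control arrays, a difference of −0.32 (SE 0.0725, adjusted p 0.0232). Neither pair of groups overlapped, and both differences were under the fold limit. With cyclic loess CYP2S1 differed by −0.23 (adjusted p 0.068). By adjusted p alone 6 P450 genes were lower (CYP4F3, CYP4F11, CYP4F12, CYP24A1, CYP2S1 and CYP2U1) and 1 was higher (CYP27C1), against 14.1% lower and 5.72% higher of all genes. CYP20A1, a P450 of unknown function, had 7.71 and 7.74 on the PCA arrays, against 8.02 and 7.98 on the evening control arrays, a difference of −0.28 (SE 0.0836, adjusted p 0.0534).

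Genes of the subfamilies best known for oxidising drugs and foreign compounds did not pass. The 8 tested were CYP2B6, CYP2C8, CYP2D7 (known as a pseudogene), CYP2E1, CYP2F1, CYP3A4, CYP3A43 and CYP3A5, and their PCA differences ran between −0.05 and 0.30. CYP3A4, the main drug-oxidising enzyme of the liver, had 5.48 and 5.13 on the PCA arrays, against 5.25 and 4.77 on the evening control arrays. These overlapped, and the difference of 0.30 (SE 0.176) had an adjusted p of 0.252. The remaining genes of the CYP2 family, CYP2J2 (which makes epoxides of arachidonic acid) and CYP2W1, differed by 0.13 and 0.06.

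Genes of cholesterol and bile acid metabolism were all slightly higher on average after the PCA pollutants, by 0.14 to 0.29, and 0 of 5 passed. CYP8B1, the sterol 12-hydroxylase, differed by 0.27 (SE 0.159, adjusted p 0.243). CYP7B1, the oxysterol 7-hydroxylase, differed by 0.18, CYP39A1, a hydroxylase of 24-hydroxycholesterol, by 0.16, and CYP46A1, the cholesterol 24-hydroxylase, by 0.14. CYP7A1, the rate-limiting enzyme of bile acid synthesis, was untested, with 4.64 and 3.97 on the PCA arrays, against 3.93 and 4.21 on the evening control arrays. The 5 tested genes stayed positive under the further scalings, where the median difference ran down to 0.07 with cyclic loess. Among the 5 steroid hormone genes, CYP11B2 (aldosterone synthase) differed by 0.11, CYP17A1 (the 17-hydroxylase) by −0.03 and CYP19A1 (aromatase) by 0.11, with CYP11A1 and CYP11B1 between −0.06 and 0.08. The signs of CYP19A1 and CYP11B1 turned with 2 of the 3 further scalings.

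CYP4 genes outside CYP4F were CYP4A11, CYP4A22, CYP4B1, CYP4V2, CYP4X1 and CYP4Z1. Their PCA differences as deposited ran between −0.20 and 0.39 with a median of 0.03, against a median of −0.62 in CYP4F. With cyclic loess they ran lower, between −0.34 (CYP4A11) and 0.26 (CYP4A22). CYP4B1 turned negative there (−0.02), and the median in CYP4F was −0.627. CYP4A22, a paralog of the fatty acid hydroxylase CYP4A11, had 6.41 and 6.45 on the PCA arrays, against 6.01 and 6.06 on the evening control arrays, a difference of 0.39 (SE 0.162, adjusted p 0.122). CYP4V2, a fatty acid hydroxylase of the retina, differed by −0.20 (adjusted p 0.142). Over the 36 P450 genes tested outside CYP4F, 0 passed and the median as deposited was 0.07. Over all 41 it was 0.06, against −0.00169 for all genes.

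**Figure D2:**
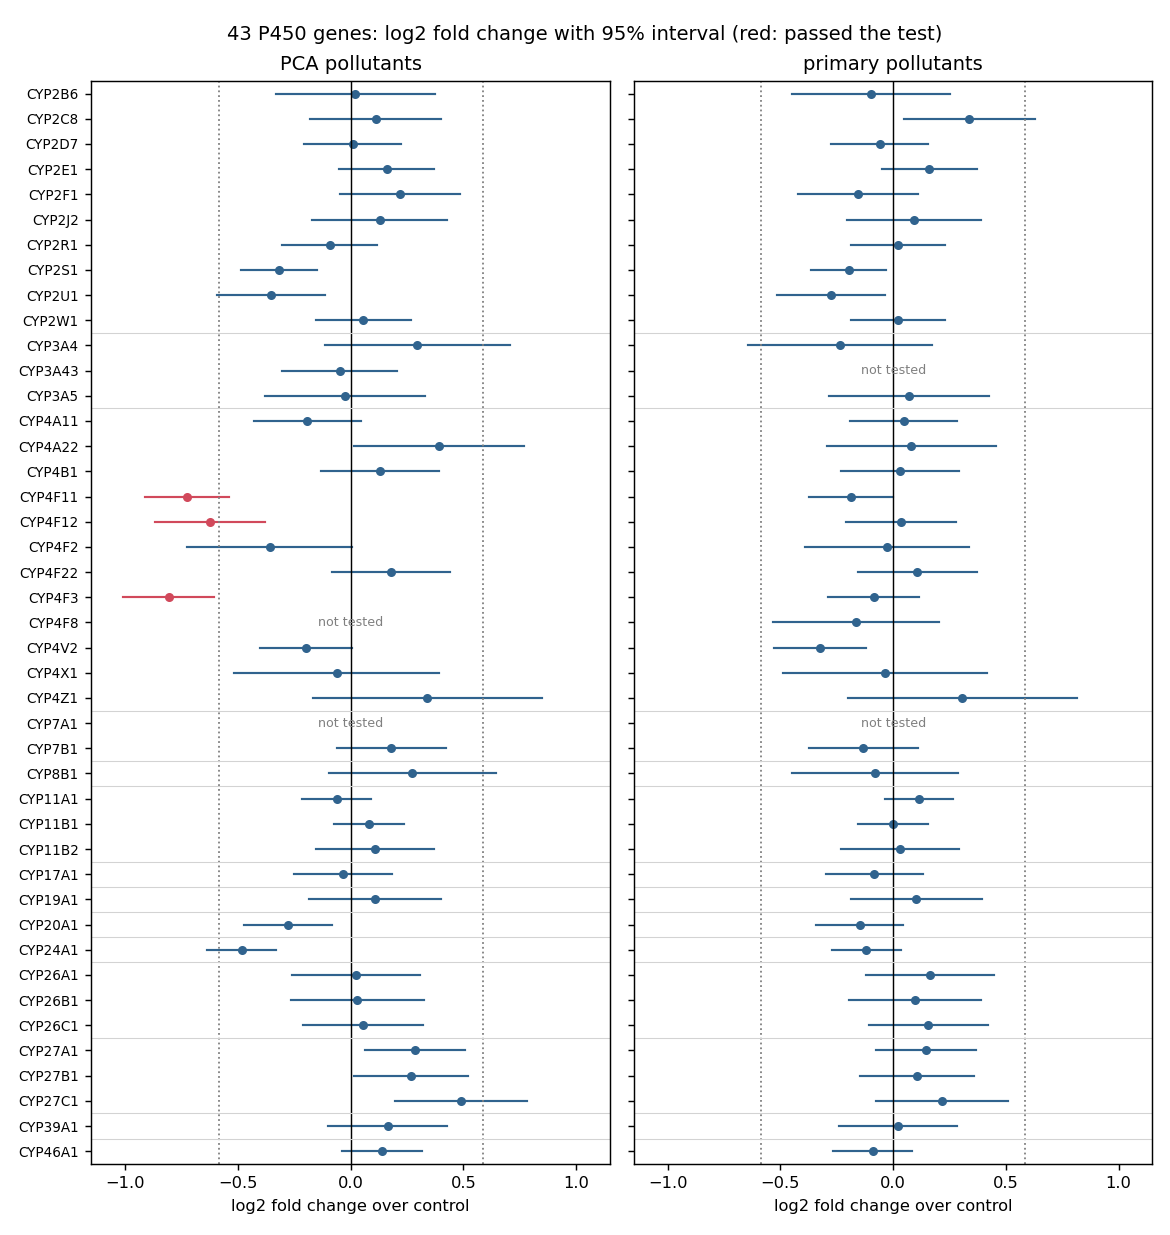
Log2 fold change of the 43 P450 genes over control after the PCA pollutants (left) and the primary pollutants (right), with 95% intervals, by family. Dotted lines mark the 1.5-fold limit. CYP4F3, CYP4F11 and CYP4F12 (red) passed the test after the PCA pollutants and 0 genes did after the primary pollutants.

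Most P450 probe sets had low signal. The mean signal over the 8 arrays was 30 to 100 for 22 of the 43 genes (51.2%), against 27.2% of all genes, and 300 or more for 5 (11.6%), against 33.6%. It was 100 to 300 for 13 genes (30.2%, against 32.6%) and under 30 for CYP3A43, CYP4F8 and CYP7A1. The 5 genes at 300 or more were CYP24A1, CYP2R1, CYP2S1, CYP4F3 and CYP4F11. Of these 5, 2 passed after the PCA pollutants, against 5.03% of all genes in that range, where the shares of all genes count both directions. Of the 13 at 100 to 300, 1 passed (CYP4F12), against 3.79%, and of the 22 at 30 to 100, 0 passed, against 1.44%. CYP3A43 was the 1 gene under 30 that was tested and did not pass, against 2.26% of all genes there. The median SE of a PCA difference was 0.11 in P450 genes and 0.091 over all genes tested.

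**Figure D3:**
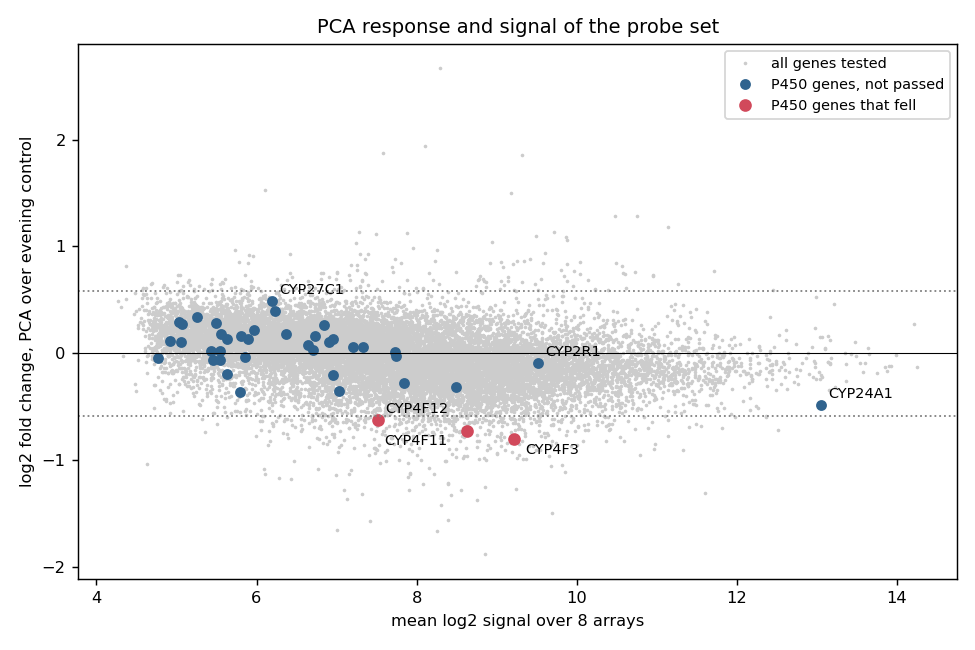
PCA response (log2 fold change over evening control) against the mean log2 signal of the probe set over 8 arrays, for all genes tested (grey) and the 41 P450 genes tested (blue, and red where they fell). Dotted lines mark the 1.5-fold limit. Most P450 genes lie at the left, and the 3 that fell lie at 7.52 and above.

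After the primary pollutants, 0 of 41 P450 genes tested passed, as did 0% of all 17381 genes. At an unadjusted p under 0.05, 4 P450 genes were lower and 1 was higher, against 4.67% and 3.29% of all genes. Without adjustment, an analysis of variance plus the fold limit passed 14 of the 17381 genes, with 0 of the 41 P450 genes among them. It also passed 1 of the 7 P450 probe sets with several symbols, which had the largest difference of the 7, 0.70 (adjusted p 0.455 in limma). The smallest p was that of CYP4V2, with 6.85 and 6.64 on the primary arrays, against 7.10 and 7.04 on the morning control arrays. Its difference was −0.33 (SE 0.0878, unadjusted p 0.00641, adjusted p 0.45). The others were CYP2U1 with −0.28, CYP2S1 with −0.20, CYP4F11 with −0.19 and CYP2C8 with 0.34, at adjusted p of 0.514 or more. CYP4F3 differed by −0.09 (SE 0.0872, 95% interval −0.29 to 0.12, adjusted p 0.836) and CYP4F12 by 0.04 (adjusted p 0.952).

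The difference between the responses was tested in the same fit, and 0 of 42 P450 genes passed, against 0.439% of all genes. At an unadjusted p under 0.05, 4 P450 genes were lower (11.4% of all genes) and 0 higher (6.20%). The PCA response of CYP4F3 less its primary response was −0.72 (SE 0.124, 95% interval −1.01 to −0.43, adjusted p 0.0622). For CYP4F12 it was −0.66 (adjusted p 0.0972), for CYP4F11 −0.54 (adjusted p 0.0863) and for CYP24A1 −0.36 (adjusted p 0.12). Intervals of these 4 genes lay below 0, but after adjustment the falls of CYP4F3, CYP4F11 and CYP4F12 were not shown to differ between the exposures. The evening and morning controls differed in 0 of 41 P450 genes, as in 0% of all 17310 genes. CYP4F3 differed between the evening and the morning controls by −0.02 (SE 0.0871). At an unadjusted p under 0.05, CYP11A1, the first enzyme of steroid synthesis, differed by 0.16 (evening less morning) and CYP2F1, a lung P450, by −0.39, against 2.91% of all genes higher and 2.18% lower in evening controls.

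Genes that work with P450 enzymes, control their genes or act beside them were followed in 5 lists. Counts in these lists stand against 2.66% lower and 0.876% higher of all genes. Of 10 genes for electron donors, CYB5A (cytochrome b5) fell after the PCA pollutants, with 10.09 and 10.02 on the PCA arrays, against 10.70 and 10.67 on the evening control arrays. Its difference of −0.63 (adjusted p 0.00254) passed as deposited, but was −0.52 with quantile normalization repeated and −0.49 with cyclic loess, under the fold limit. POR, the reductase of microsomal P450s, had 10.28 and 10.20 on the PCA arrays, against 10.63 and 10.57 on the evening control arrays, a difference of −0.36 (adjusted p 0.0136). CYB5R1, a cytochrome b5 reductase, differed by −0.40 (adjusted p 0.0129) and CYB5R3 by −0.19. All 10 differences were negative as deposited, with a median of −0.16. With cyclic loess 8 were negative, with a median of −0.0677, and POR differed by −0.22 (adjusted p 0.0611). Of 12 genes of heme synthesis and breakdown 0 passed. FECH, which inserts iron into heme, differed by −0.51 (adjusted p 0.00671), BLVRB, a biliverdin reductase, by −0.31 and UROD, an enzyme of heme synthesis, by −0.26.

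Of 21 genes for receptors and factors known to control P450 genes, 3 fell and 0 rose. RARB, a retinoic acid receptor, had 7.66 and 7.64 on the PCA arrays, against 8.93 on both evening control arrays, a difference of −1.28 (adjusted p 0.000698). NR5A2, a nuclear receptor of bile acid genes in the liver, had 8.79 and 8.95 on the PCA arrays, against 9.77 and 9.78 on the evening control arrays, a difference of −0.91 (adjusted p 0.00134). HNF4G, a nuclear receptor of gut and liver cells, had 6.08 and 6.05 on the PCA arrays, against 6.86 and 6.73 on the evening control arrays, a difference of −0.73 (adjusted p 0.00282). PPARA, the receptor through which fatty acids raise CYP4A genes in rodents, differed by −0.41, FOXA1, a forkhead factor, by −0.53 (adjusted p 0.014) and NR1H3, the oxysterol receptor, by −0.35. With the arrays centred on their medians FOXA1 passed too, with −0.59. VDR, the vitamin D receptor that drives CYP24A1, had 6.67 and 6.51 on the PCA arrays, against 6.37 and 6.43 on the evening control arrays, a difference of 0.19 (adjusted p 0.129).

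Of 16 eicosanoid enzymes without a CYP symbol, 1 fell. EPHX2, the soluble hydrolase that opens the fatty acid epoxides P450s make, had 6.38 and 6.44 on the PCA arrays, against 7.22 and 7.44 on the evening control arrays, a difference of −0.93 (adjusted p 0.00253). LTA4H, which makes leukotriene B4, differed by −0.36 (adjusted p 0.0135) and ALOX5, which acts before it, by 0.20 (adjusted p 0.265). PLA2G4A, which frees arachidonic acid, differed by −0.51 (adjusted p 0.0144) and EPHX1, the microsomal hydrolase, by −0.34 (adjusted p 0.0201). With cyclic loess LTA4H differed by −0.23 (adjusted p 0.0573) and EPHX1 by −0.21 (adjusted p 0.0922). Of 7 other oxidases tested, 2 fell and 1 rose. FMO5, a flavin monooxygenase, had 6.58 and 6.65 on the PCA arrays, against 7.78 and 7.64 on the evening control arrays, a difference of −1.09 (adjusted p 0.000935). MAOA, a monoamine oxidase, had 7.40 and 7.32 on the PCA arrays, against 8.34 and 8.44 on the evening control arrays, a difference of −1.03 (adjusted p 0.000726). The PCA arrays of both lay about a log2 unit below their controls. XDH, xanthine dehydrogenase, had 6.78 and 6.73 on the PCA arrays, against 6.23 and 6.07 on the evening control arrays. Its rise of 0.60 (adjusted p 0.00562) was under the fold limit with each of the 3 further scalings. After the primary pollutants 0 genes passed in each of the 5 lists, and at an unadjusted p under 0.05 the receptors and factors had 1 gene higher, the eicosanoid enzymes 1 lower and the other oxidases 3 lower, against 4.67% of all genes lower and 3.29% higher.

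**Figure D4:**
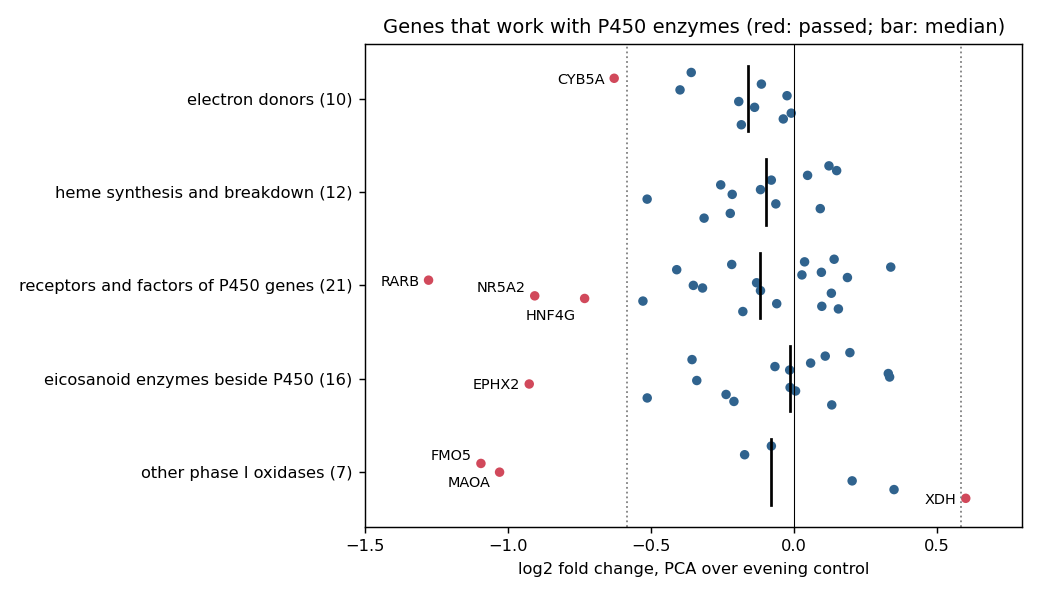
Log2 fold change after the PCA pollutants over evening control for each tested gene (point) of 5 lists. The lists hold genes that work with P450 enzymes, control their genes or act beside them. The number tested is in brackets, a bar marks the list median and dotted lines mark the 1.5-fold limit. Genes in red passed the test, 7 lower and 1 higher.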

How the data were processed

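Values from 8 arrays of A549 cells were used. The authors normalized them by robust multichip average and deposited them as log2 signals, and the submitters' processing notes name Partek 6.4. Normalization across arrays draws their distributions together, so a shift of all genes may be reduced, and the deposited medians still ran between 6.93 and 7.03. Of 28869 probe sets, 19310 carry 1 symbol, 1752 carry several and 7807 carry none. Names came from a table of GEO's platform annotation, checked by Entrez ID against RefSeq on GRCh38.p14, where 19279 matched. The probe set of highest mean stood for a gene. Probe sets with a signal of 30 or more on at least 1 array of a comparison were tested.

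Group means over all 8 arrays were fitted in limma 3.58.1 under R 4.3.3 (lmFit and eBayes), and p-values were adjusted by Benjamini-Hochberg across every probe set in the test. Calls needed an adjusted p under 0.05 with 1.5-fold or more, limits given in the study's methods. The number of arrays limits the precision. The script was tested on simulated data. The members and lists were chosen with earlier results of these data known. The genes named were every P450 gene that passed, every CYP4F gene, the member of largest PCA difference in each family with several members, all members of families with 1, and of each partner list those that passed and up to 3 others of smallest p. Other genes given with values, such as CYP2S1, CYP2R1, CYP4V2, CYP4A22, CYP27A1, CYP27B1, VDR and ALOX5, were chosen after their values were seen.

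Alternatives covered the signal filter, the scaling, the arrays fitted, the prior, the test, the fold limit, the probe sets averaged, a replicate block and each array left out. Controls exchanged between times of day were added after the data were seen. Promoters were searched and aligned with Biopython 1.88 under Python 3.11.15 (match 1, mismatch −1, gap opening −2, gap extension −0.5), and plots were drawn with matplotlib 3.10.9.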

Additional observations from a re-analysis of the deposited data

How the results depend on the processing

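CYP4F3 and CYP4F11 passed after the PCA pollutants under every alternative run except the test against a 1.5-fold change. That test called 0 of 41 P450 genes (CYP4F3 −0.81, adjusted p 1) and 0.16% of all genes, and with no fold limit 7 passed, against 19.9% of all genes. With an array left out, CYP4F12 ran between −0.65 and −0.60. The count of P450 genes was 2 with the controls of the other time of day, against 2.91% of all genes. That alternative was chosen after seeing the data, and CYP4F12 had −0.54 in it. The median of the P450 genes became −0.0247 with a signal limit of 100, −0.0055 with arrays centred on their medians, −0.0083 with quantile normalization repeated and −0.0181 with cyclic loess; centring moved the median of all genes to −0.0622. For the difference between responses, 2 P450 genes passed (CYP4F3 with −0.72 and CYP4F12) with a signal limit of 100 (CYP4F3 adjusted p 0.0218), with a trended and robust prior (0.00291) and with unadjusted analysis of variance, where 247, 278 and 315 of all genes passed, against 77 as reported.

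Among the genes named by the rule above, signs turned for some near 0. CYP26C1 went to −0.0055 with centring, and CYP19A1 to −0.0265 with quantile normalization and −0.0415 with cyclic loess. CYP11B2 went to −0.0132 and CYP17A1 to 0.0653 with the other controls. Other P450 genes turned too, among them CYP2R1 (0.0368), CYP2J2 (−0.0133), CYP2C8 (−0.0345) and CYP4B1 (−0.0187) with cyclic loess. With an array left out, CYP26C1 ran between −0.0694 and 0.18, CYP17A1 between −0.11 and 0.0455, CYP19A1 between −0.0841 and 0.30, and the evening less morning difference of CYP4F3 between −0.10 and 0.0556. The cause was not tested. Arrays that share a replicate number did not deviate together (correlations of 0.005 for PCA with evening control and −0.097 for primary with morning control). With a replicate block 3 P450 genes passed after the PCA pollutants, against 3.5% of all genes, and CYP4F3 kept −0.81 (adjusted p 0.00643). The count over all genes for the difference between responses was then 2, against 77. No P450 call changed with the block. With the other controls 1 of the other oxidases passed after the primary pollutants, against 0 as reported. In that setting 25 of all 17377 genes passed (0.144%), against 0 as reported. With an array left out, differences that had not passed ran between 0.0574 and 0.54 for CYP3A4, 0.0357 and 0.32 for CYP4F22, 0.0572 and 0.30 for CYP7B1, and −0.52 and −0.19 for CYP4F2. Each group had 2 arrays, and 51.2% of P450 genes lay at a signal of 30 to 100.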
